A study of Mus musculus with 2 samples.

Results

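Avpr1a, Hdc, Penk and Thy1 are 4 genes whose signal dropped steeply when embryonic ureters were kept with an inhibitor of WNT secretion. They were selected on that decrease, the ratio of treated over control signal on these arrays, so its size below is a description and was not tested. They were 4 of the 29924 gene names on the array. Each was represented by 1 probe of 60 bases, printed at 4 positions, which gave 16 spots on each array. All 4 probes passed the filter on dim probes, which 20119 of the gene names passed.

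The ureters came from E11.5 wildtype embryos of the NMRI mouse strain and stayed in culture for 18 h, either in IWP-2 (10 µM) or in its solvent DMSO alone (2‰). The sex of the embryos was not determined, and each RNA came from a pool of ureters. Each of the 2 arrays compared a treated with a control pool. The treated pool was labelled with AlexaFluor647 on replicate 1 and with AlexaFluor555 on replicate 2, and the control pool with the other dye. The explants held epithelium and mesenchyme together, so fewer cells that express a gene and less RNA of that gene per cell cannot be told apart.

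IWP-2 blocks Porcupine, the enzyme that attaches a lipid to WNT proteins, and unlipidated WNTs are not secreted. In the young ureter, WNTs made by the epithelium act through CTNNB1 on the adjacent mesenchyme, from which smooth muscle cells arise. The 4 genes belong to different pathways. Avpr1a encodes the V1a vasopressin receptor, which couples to Gq and raises intracellular calcium. Hdc encodes histidine decarboxylase, the enzyme that makes histamine. Penk encodes proenkephalin, the precursor that is cleaved to the enkephalin opioid peptides. Thy1 encodes CD90, a small surface protein of the immunoglobulin superfamily that is held in the membrane by a GPI anchor and is carried by T cells, neurons and many fibroblasts.

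The sequences show what each probe reads and what lies before the start of a member's transcript. They are given 5′ to 3′ in the sense of the gene, and capitals mark the hexamer AATAAA, the usual signal for cleavage and polyadenylation. The Hdc probe holds no such hexamer, has 1 of its 3 forward reading frames free of stop codons, and is shown whole. The files place it at chr2:126419516-126419575 on the minus strand (mm9).
Hdc probe: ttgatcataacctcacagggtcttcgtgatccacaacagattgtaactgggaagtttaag

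For the other probes the last 30 of the 60 bases are shown. In the Penk probe (chr4:4060724-4060783, minus strand, mm9) the hexamer starts at base 51, and in the Thy1 probe (chr9:43856591-43856650, plus strand, mm9) at base 48. The probes were not placed in exons, and a match of letters does not show that a transcript ends there. The Avpr1a probe (chr10:121890135-121890194, plus strand, mm9) holds no such hexamer, and each of its 3 forward frames contains a stop codon. With 1 probe a gene, a change in the use of a transcript end and a change in the whole transcript cannot be told apart.
Penk probe, bases 31 to 60: atctctcctgacgaaacatcAATAAAtgct
Thy1 probe, bases 31 to 60: aggaaagaaaactgcacAATAAAaccaagc
Avpr1a probe, bases 31 to 60: gagattctaagtctcctagataactccaga

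RefSeq promoters (GRCm38.p6) were at hand for 2 of the 4 members, Hdc and Avpr1a, and not used here for Penk and Thy1. The 250 bases before the start are shown, with matches to 4 motifs in capitals: the core of TCF/LEF factors, through which WNT signals reach DNA (with the letters AACAAAG, or in its other forms ATCAAAG, or else TACAAAG, or finally TTCAAAG), the TATA sequence TATAAA, the GC box GGGCGG and the cAMP response element TGACGTCA, each searched on both strands.
Hdc promoter, chr2:126618679-126618928, minus strand: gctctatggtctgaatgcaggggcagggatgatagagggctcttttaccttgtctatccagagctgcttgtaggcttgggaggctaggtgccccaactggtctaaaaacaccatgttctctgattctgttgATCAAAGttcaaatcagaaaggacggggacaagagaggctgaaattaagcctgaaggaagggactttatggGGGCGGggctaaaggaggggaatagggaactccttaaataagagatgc
Avpr1a promoter, chr10:122448249-122448498, plus strand: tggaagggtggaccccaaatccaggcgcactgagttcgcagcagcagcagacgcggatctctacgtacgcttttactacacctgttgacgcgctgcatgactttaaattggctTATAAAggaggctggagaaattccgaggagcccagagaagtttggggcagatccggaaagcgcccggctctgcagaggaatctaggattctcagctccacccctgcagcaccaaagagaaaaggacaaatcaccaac

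The Hdc window held ATCAAAG, 119 to 113 bases before the start, and GGGCGG, 48 to 43 bases before it. The Avpr1a window held TATAAA, 137 to 132 bases before the start. Among all 32851 RefSeq promoter windows of this length, 14.8% held the TCF/LEF core, 12.4% TATAAA, 32.7% GGGCGG and 1.5% TGACGTCA. A match of letters is a description and not a site of binding.

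The plot of channel signals shows each spot beside its local background. Spot signals are given in the scanner's units without subtraction or scaling. The AlexaFluor647 channel was scanned brighter (median signal 618 on replicate 1 and 680 on replicate 2, against 307 and 352 for AlexaFluor555), with a local background of 84 and 83 against 27 on both arrays. The ratio of raw signals in a spot is therefore not yet the ratio of RNA, and the log2 ratios further down are corrected for background and dye.

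**Figure D1:**
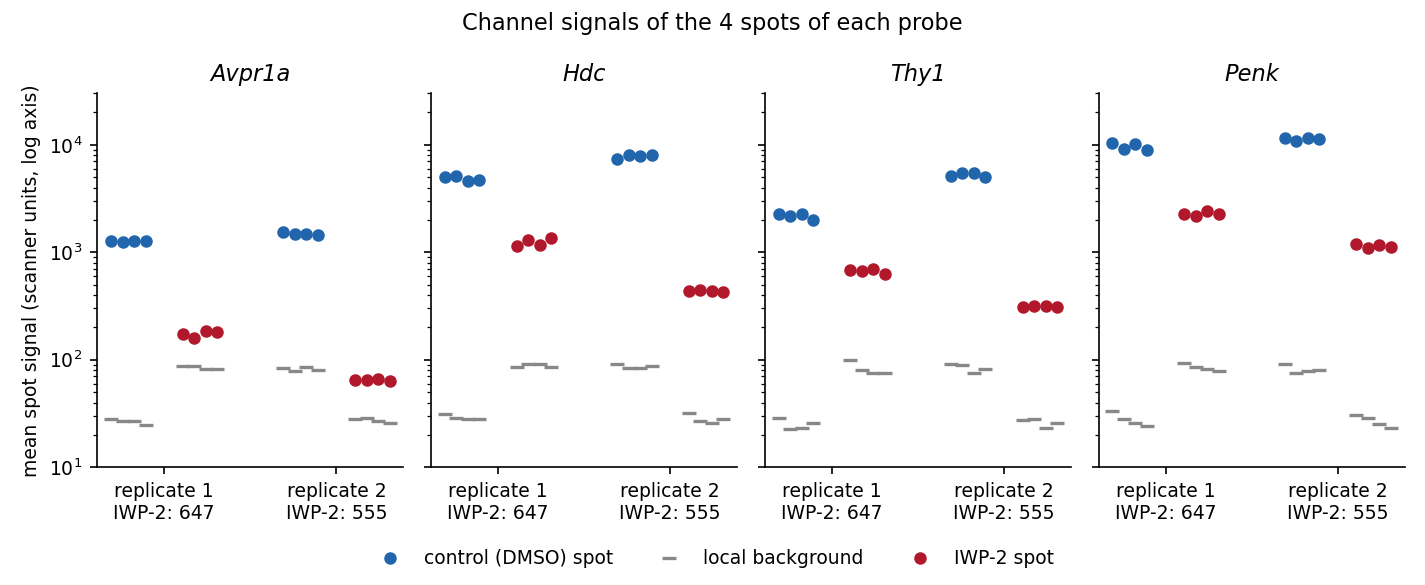
Mean signal of each of the 4 spots of a probe in the control channel (blue) and the IWP-2 channel (red), with the local background of the same spot as a grey dash, on a log axis in scanner units, for both arrays. The control spots lie above the IWP-2 spots in every panel, and the IWP-2 spots of Avpr1a come closest to the background.

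Avpr1a, the receptor, had a mean control signal of 1269 on replicate 1 and of 1486 on replicate 2. In the treated channel the mean signal was 175 on replicate 1, over a local background of 84.5, and 64.6 on replicate 2, over a background of 27.5. Control and treated spots did not overlap on either array: the dimmest control spot read 1243 and the brightest treated spot 185. Avpr1a was picked for its decrease, so nothing is read from this gap. All 4 treated spots were still rated well above background by the scanner software on both arrays, at 2.08 and 2.35 times the local background. The array also carried 17214 negative control spots, which match no transcript. After subtraction of the local background, 1.21% of them were at or above the treated Avpr1a signal on replicate 1 and 0.674% on replicate 2. The treated signal thus lay at the upper edge of the negative controls, at 0.877 times their 99th percentile on replicate 1 and 1.21 times on replicate 2, whereas the control signal lay at 33.8 and 24.5 times the 99th percentile of its own channel.

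Hdc, the histamine-forming enzyme, had a mean control signal of 4864 on replicate 1 and of 7847 on replicate 2. The treated signals were 1242 and 438, at 14.0 and 15.6 times the local background. Unlike those of Avpr1a, the treated signals of Hdc stood well clear of the negative controls, of which 5 and 6 of 17214 were at or above them.

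Thy1, the surface protein, had a mean control signal of 2183 on replicate 1 and of 5261 on replicate 2. The treated signals were 670 and 314, at 8.23 and 12.1 times the local background. At most 10 negative control spots, or 0.0581%, reached the treated signal.

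Penk, the opioid peptide precursor, had a mean control signal of 9686 on replicate 1 and of 11355 on replicate 2. The treated signals were 2276 and 1144. With 26.9 and 43.3 times the local background, the treated channel of Penk was the farthest of the 4 from its background. Of the 16 member spots on each array, 0 were saturated and 0 were marked as outliers.

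Log2 ratios of treated over control were then taken after normexp background correction with an offset of 50 and a loess fit within each array. Avpr1a had log2 ratios of -3.70 on replicate 1 and -3.12 on replicate 2, a mean of -3.41 ± 0.41 (SD, n = 2 arrays), or 9.40% of the control level. With a treated signal at the edge of the negative controls, that percentage depends on the offset and on the background method. It was 5.87% with an offset of 0, 7.71% with no background subtraction and 3.83% with Agilent's processed signals. Hdc had log2 ratios of -2.87 and -3.17, a mean of -3.02 ± 0.21, or 12.3% of control. Thy1 had log2 ratios of -2.61 and -3.03, a mean of -2.82 ± 0.30, or 14.2% of control. Penk had log2 ratios of -2.99 and -2.37, a mean of -2.68 ± 0.44, or 15.6% of control. As folds, the means were 10.6, 8.12, 7.06 and 6.40 in that order. The 4 spots of a probe were closer to each other than the 2 arrays were, with an SD between spots of at most 0.13.

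The 4 members ranked 2nd, 4th, 5th and 7th in the order of mean decrease among the 20119 genes. Tll1, a secreted metalloprotease of the BMP1 family, stood above them with a mean log2 ratio of -3.81. Foxl1, a forkhead transcription factor of mesenchyme, lay between Avpr1a and Hdc with -3.11. Car3, a carbonic anhydrase, lay between Thy1 and Penk with -2.71, and Ism1, a secreted protein, followed Penk with -2.66. Each member differed from the gene next above it and from the gene next below it by less than its own SD between the arrays.

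**Figure D2:**
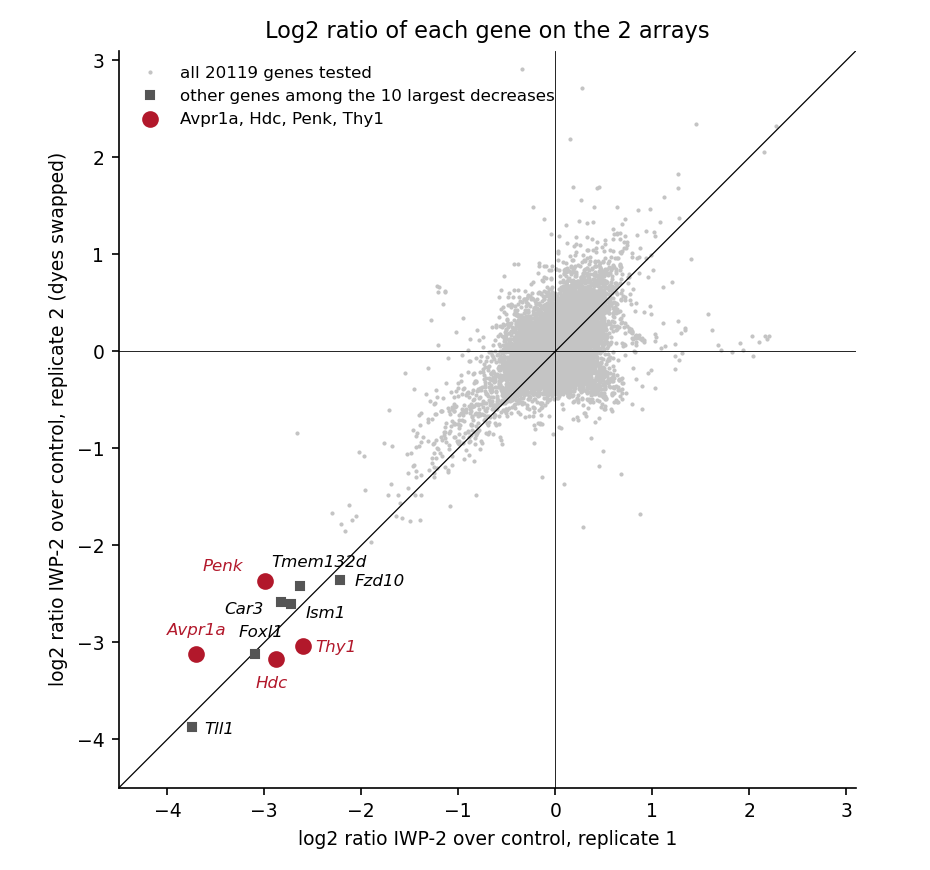
Log2 ratio of IWP-2 over control for each of the 20119 genes tested on replicate 1 (horizontal) and on replicate 2 with exchanged dyes (vertical); the diagonal marks equal ratios. Avpr1a, Hdc, Penk and Thy1 (red) lie in the far lower left with 6 other named genes, Avpr1a and Penk above the diagonal and Hdc and Thy1 below it.

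The arrays did not give the members the same order. Avpr1a and Penk had the larger decrease on replicate 1, and Hdc and Thy1 on replicate 2. The difference between the arrays was 0.58 for Avpr1a and 0.62 for Penk, at the 96.0th and 96.7th percentile of all genes, for which its median was 0.15. It was 0.43 for Thy1 and 0.29 for Hdc, at the 90.5th and 78.3rd percentile. The dyes were exchanged between the arrays, so a difference between dyes and a difference between pools cannot be told apart. The contrast of AlexaFluor647 with AlexaFluor555, in which the treatment cancels, was not used to choose the members. It was -0.29 for Avpr1a, 0.15 for Hdc, -0.31 for Penk and 0.21 for Thy1 on the log2 scale (limma, Benjamini-Hochberg adjusted p = 1.00 for each). Among all genes 0 passed a false discovery rate of 0.05 in this contrast, 0% of the 20119, and 438 had an unadjusted p under 0.05. The treatment effect itself enters the error of this contrast, with standard errors of 1.49 to 1.89 for the 4 members, so it could not have detected a dye effect of the size seen.

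By the distance between their pairs of log2 ratios on the 2 arrays, the genes most like Hdc were Foxl1 (0.23) and Thy1 (0.30), and those most like Thy1 were Hdc (0.30) and Ism1 (0.45). Penk was nearest to Car3 (0.26), Ism1 (0.36) and Tmem132d (0.36). For Avpr1a the nearest were Foxl1 (0.61), Tll1 (0.76) and Hdc (0.83), distances smaller than the range of its own mean over the treatments of the background.

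The treatment of the background moved Avpr1a but hardly the other members. With Agilent's processed signals, the log2 ratios of Avpr1a were -4.80 and -4.62, folds of 27.8 and 24.5, in place of 13.0 and 8.70 with the normexp offset. With the local background simply subtracted its mean was -4.55, and with a normexp offset of 0 it was -4.09. The deposited series table lists signed fold changes of -26.5 and -16.6 for Avpr1a. Raising low processed signals to a floor of 15, which matched most probes of that table, does not give these values. For Hdc the processed folds were 7.90 and 10.3, for Thy1 7.24 and 9.70, and for Penk 8.17 and 5.46. Under the 6 treatments of the background shown in the plot of alternatives, the means ran from -4.71 to -3.41 for Avpr1a, from -3.20 to -3.02 for Hdc, from -3.07 to -2.82 for Thy1 and from -2.74 to -2.68 for Penk. As folds, the mean decrease of Avpr1a ran from 10.6 to 26.1, and its order against Tll1 changed with the setting.

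**Figure D3:**
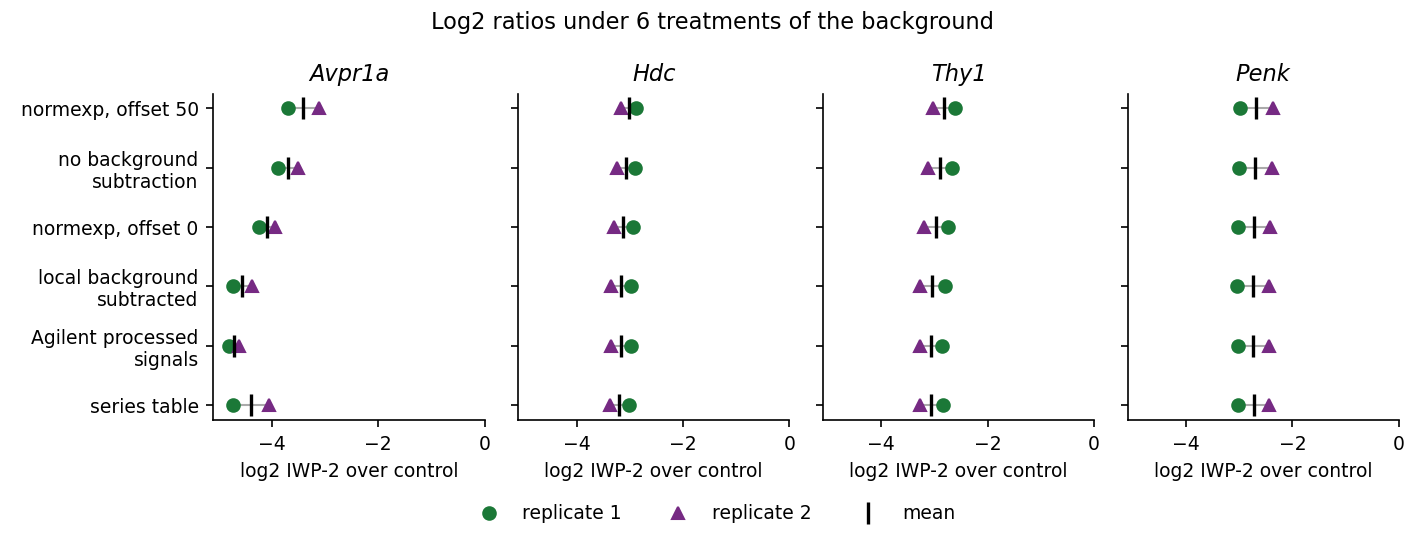
Log2 ratio of IWP-2 over control on replicate 1 (green circle) and replicate 2 (purple triangle), with their mean (black bar), under 6 treatments of the background. The mean of Avpr1a moves from -3.41 to -4.71, while that of Penk stays between -2.74 and -2.68.

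A second description used the cut-offs on processed intensities, a signal of at least 100 in the brighter channel and a change of at least 2-fold in the same direction on both arrays. All 4 members passed, among 50 genes that passed downward, or 0.343% of the 14566 bright enough. Since the members were picked for this decrease, nothing is read from that count. With a signal of at least 100 asked of both channels, 26 genes passed and Penk was the 1 member among them, since the lower of the processed treated signals, as a geometric mean of the 4 spots, was 98.7 for Hdc, 69.0 for Thy1 and 7.35 for Avpr1a, all on replicate 2.

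The other genes of the members' pathways were then examined. In the limma fit over all genes, 232 of 20119 genes were lower at a false discovery rate of 0.05 (1.15%) and 123 were higher (0.611%). The lower genes made up 65.4% of these calls, but 83.7% with each array centred on its median (36 lower, 7 higher), and 45.5% and 39.1% in the separate-channel fits without and with a dye term (388 lower and 465 higher, 456 lower and 711 higher). Of 91 related genes in 4 lists, 85 could be tested. Of these, 1 was lower and 0 were higher, and the median log2 ratio was 0.05, against 0.00 over all genes tested. At an unadjusted p under 0.05, 8 of the 85 were lower and 17 higher, which is 9.41% and 20.0%, beside 4.74% and 8.67% of all genes. The count of 0 higher genes depended on the model: it was 3 to 9 in 6 of 14 alternatives. The genes most often among them were Slc18a1 (6 alternatives), Slc18a2 and Vcam1 (5 each) and Ddc (4). In the same 6 alternatives more genes were called higher over all genes tested too, 224 to 1037 in place of 123. Nothing about the related genes is therefore read from these counts.

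Of 25 tested genes of vasopressin signalling, 0 were called in either direction (limma), and their median log2 ratio was 0.01. The hormone Avp was too dim to be tested, and Oxt, encoding the related hormone oxytocin, had a log2 ratio of -0.03. The other receptors of the family stood at -0.20 for Avpr1b, the pituitary receptor, 0.14 for Avpr2, the receptor of the renal collecting duct, and 0.29 for Oxtr, the oxytocin receptor. Behind the receptor, Gnaq and Gna11, which encode the coupled G protein subunits, had log2 ratios of -0.01 and 0.03. The lowest values of this list belonged to the phospholipases Plcb1 (-0.47, adjusted p = 0.13) and Plcb4 (-0.45, adjusted p = 0.16), and the highest to the desensitising factor Rgs4 (0.52, adjusted p = 0.064). Of 14 alternatives, Plcb4 was called lower in 2 and Plcb1 in 1, while Prkcb, a kinase of the same route, and Rgs4 were each called higher in 3 and Oxtr in 1, the series table.

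Of 16 tested genes of histamine metabolism, 1 was lower and 0 were higher, with a median log2 ratio of 0.08. Slc22a3, encoding organic cation transporter 3, which carries histamine and other monoamines across the membrane, had processed signals of 15.7 (treated) against 120 (control) on replicate 1, and of 21.2 against 92.5 on replicate 2. Its log2 ratios were -2.13 and -1.58, with a mean of -1.85 ± 0.39 (SD, n = 2; limma, adjusted p = 0.0042), and was called in 13 of 14 alternatives, the exception being the series table. The vesicular transporters Slc18a1 and Slc18a2 had log2 ratios of 0.51 and 0.54 and missed the threshold (adjusted p = 0.069 and 0.058). So did Slc22a2, encoding organic cation transporter 2, with -0.44 (adjusted p = 0.14), which was called lower in 3 of 14 alternatives. Its processed signals were 4.81 (treated) against 12.9 (control) on replicate 1, and 3.27 against 7.65 on replicate 2. No treated Slc22a2 spot was rated well above background on either array. The breakdown enzymes Hnmt and Aoc1 stood at 0.35 and 0.36, with adjusted p = 0.39 and 0.24. Among the histamine receptors, the log2 ratio was 0.04 for Hrh1, -0.15 for Hrh3 and 0.18 for Hrh4, and Hrh2 was too dim to be tested. The arrays disagreed on Hrh4, with 0.69 on replicate 1 and -0.32 on replicate 2. Ddc, which encodes the related decarboxylase for aromatic amino acids, had 0.44 (adjusted p = 0.096).

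Of 16 tested genes of opioid peptide formation and reception, 0 were called (limma), with a median log2 ratio of 0.10 and a range from -0.27 to 0.28. The other precursors had log2 ratios of -0.20 for Pomc, -0.00 for Pdyn and 0.17 for Pnoc. The 2 arrays disagreed on Pdyn, with 0.33 on replicate 1 and -0.34 on replicate 2. Of the receptors that bind enkephalins, Oprm1 had 0.02 (0.21 on replicate 1 and -0.18 on replicate 2) and Oprd1 was too dim to be tested. Oprk1, the dynorphin receptor, was too dim as well, and Oprl1 and Ogfr had 0.20 and -0.07. The convertases Pcsk1 and Pcsk2, which cut the precursors, had 0.21 and 0.10, and the carboxypeptidase Cpe, which trims the products, had -0.27 (adjusted p = 0.34).

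Of 28 tested partners of Thy1 at the cell surface, 0 were called (limma), with a median log2 ratio of 0.05. These comprised integrins and Sdc4, to which CD90 binds, kinases and adaptors of membrane rafts, enzymes of the GPI anchor and other surface proteins of stromal cells. Among the last, Vcam1 had the highest value (0.66, adjusted p = 0.064), followed by Pdgfrb (0.50, adjusted p = 0.089), and Nt5e and Eng, which are often scored together with CD90, had -0.15 and 0.08. In the GPI anchor machinery the lowest value was that of Gpaa1 with -0.24 (adjusted p = 0.35).

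The chromosomal neighbours of the members were compared, taking the 2 nearest tested genes on each side in the RefSeq order. Of these 16 genes 1 was lower and 0 were higher, with a median log2 ratio of -0.04. Slc27a2, a fatty acid transporter next to Hdc, had log2 ratios of -1.07 and -0.71, with a mean of -0.89 ± 0.25 (SD, n = 2; limma, adjusted p = 0.024). Its call was kept in 10 of 14 alternatives. On the other side of Hdc, Gabpb1 had -0.22 (adjusted p = 0.42) and was, in place of Slc27a2, the neighbour called lower in the series table. The folds of that table are rounded, so small changes can be equal on both arrays, and nothing is read from that call. The neighbours of Penk lay between -0.11 (Plag1) and 0.10 (Fam110b), and those of Thy1 between -0.24 (Nectin1) and 0.25 (Trim29). Beside Avpr1a, Ppm1h had 0.49 (adjusted p = 0.078).

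**Figure D4:**
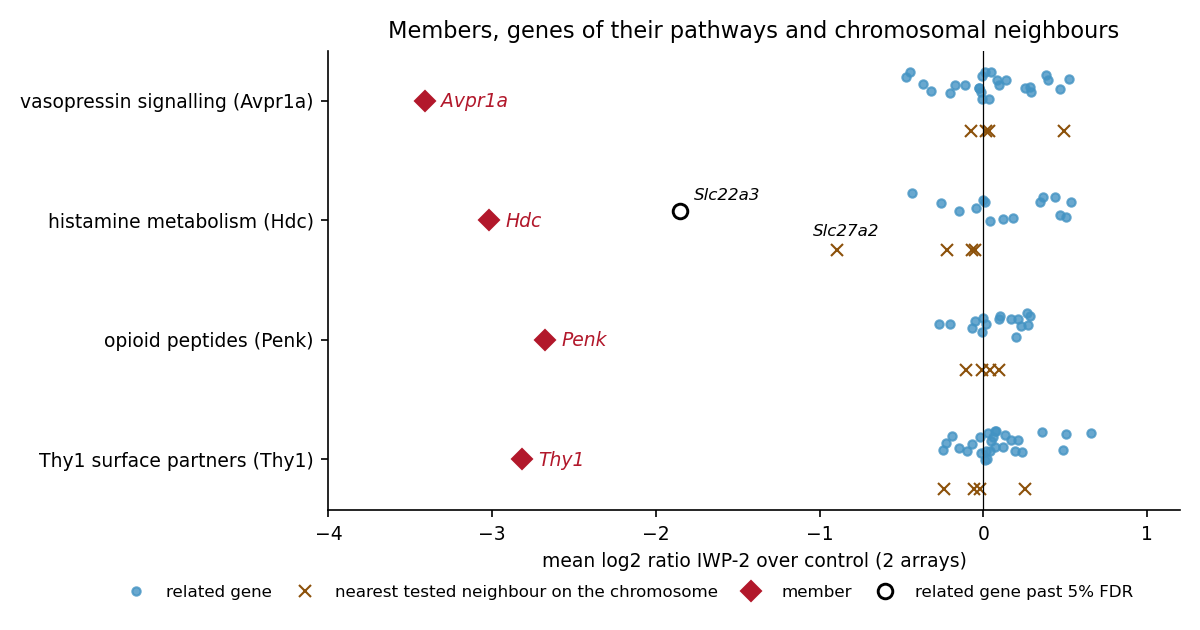
Mean log2 ratio of IWP-2 over control on the 2 arrays for each member (red diamond), the tested genes of its pathway list (blue points, vertical scatter without meaning) and its nearest tested neighbours on the chromosome (brown crosses). Slc22a3, ringed, is the 1 related gene past a false discovery rate of 0.05, and Slc27a2 beside Hdc is the 1 such neighbour.

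Markers of the cell types that are known to carry the members were measured on the same arrays. Of 10 mast cell markers, 6 could be tested for comparison with Hdc, and Cma1, Mcpt4, Ms4a2 and Fcer1a were too dim. Of the 6, Gata2, a transcription factor that is also active in other cells, was lower (-0.70, adjusted p = 0.039), Hpgds, a prostaglandin D synthase, was higher (0.62, adjusted p = 0.046), and Cpa3 and Kit had 0.56 and 0.44 (adjusted p = 0.073 and 0.11). The study found Gata2 in ureteric mesenchyme and lost there without mesenchymal Ctnnb1, so its decrease cannot be assigned to mast cells. The summed processed signal of the 10 was 8640 (treated) against 12612 (control) on replicate 1, and 8021 and 10361 on replicate 2. The sum, which weighs genes by brightness and includes those too dim to be tested, was lower on both arrays. The tested genes did not share a direction. Of the 6 tested, 3 were higher on both arrays and 1, Gata2, was lower on both, with a median log2 ratio of 0.31. Of 8 T cell markers, 4 could be tested and 0 were called (limma), with Cd3g, Cd3d, Cd8a and Cd2 too dim, and the arrays disagreed on their sum, which was 9719 (treated) against 7857 (control) on replicate 1, and 4329 and 5306 on replicate 2. Of 13 neural markers, which bear on Penk and Thy1, 11 were higher on both arrays and 1, Chgb, was called higher (0.62, adjusted p = 0.046). Their sum was 89753 (treated) against 67585 (control) on replicate 1, and 77604 and 63498 on replicate 2. The share of all genes that moved the same way on both arrays was not counted, so no excess is read from such counts, here or below.

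Of 8 markers of ureteric mesenchyme, 7 were lower on both arrays, with a median log2 ratio of -0.44. Tbx18 (-1.03, adjusted p = 0.013) and Tcf21 (-0.77, adjusted p = 0.025), which encode transcription factors of this tissue, were called. The summed signal of the 8 was 51660 (treated) against 63973 (control) on replicate 1 (log2 change -0.31), and 48797 and 57359 on replicate 2 (-0.23). According to the study, Tbx18 and Gata6 were lost in ureters without mesenchymal Ctnnb1, and Tbx2 and Tbx3 depend on that gene. Fewer mesenchymal cells and less RNA of these markers per cell can therefore not be told apart. The 5 tested smooth muscle markers had a median of -0.33 with 0 called. The medians were 0.20 for ureteric epithelium (8 genes, 0 called), 0.52 for endothelium (6 genes, 2 higher), 0.37 for red cells (5 genes, 0 called) and 0.27 for macrophages (5 genes, 1 higher). The 7 kidney mesenchyme markers had a median of 0.18 with 0 called, but the arrays went opposite ways: their summed signal was 18752 (treated) against 14812 (control) on replicate 1 (log2 change 0.34), and 14442 and 18207 on replicate 2 (-0.33). The part of tissue composition in the decreases of the members was not tested.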

How the data were processed

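Both arrays were of Agilent design 084956. Per the labels, the authors extracted the data with Feature Extraction 10.7.3.1, and the file headers give 12.2.0.7. The deposited scanner files give, for either channel of a spot, a mean intensity, a local background and Agilent's processed intensity. The deposited series table holds signed fold changes, named here a score. For 94.8% and 96.3% of probes they matched, within 0.1, processed ratios with signals raised to 15, but not for Avpr1a. The values of the series table and the scanner intensities were converted here to log2 ratios.

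With R 4.3.3 and limma 3.58.1, mean signals were corrected by normexp (offset 50) and loess within each array, outlier spots were dropped, and a probe's remaining spots averaged. Probes were retained if over 0.5 of its spots were well above background in one condition on both arrays, and the brightest kept probe stood for its gene. On simulated data the moderated test of limma recovered genes given large changes, and recovery of smaller changes is not claimed. It made more false calls than the nominal rate, above all where each gene's spread was taken from these arrays. The share of false calls here can therefore exceed the stated false discovery rate. Calls close to the threshold are uncertain for that reason, such as Slc27a2 (limma, adjusted p = 0.024), Gata2 (0.039), Hpgds and Chgb (0.046 each). The limma test rested on 2 arrays and 1 residual degree of freedom. Its p-values measure the spread between 2 pairs of pools, on 1 slide in 1 scan. The number of arrays limits the precision.

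Members, lists and alternatives were chosen with earlier results of these data known. Named were the 4 members, ligands, precursors, receptors and called genes of the related lists, the 3 genes nearest to each member, genes adjacent in the order of decrease, and chromosomal neighbours. Further genes were named after their values were seen, as the extremes of a list or by their role.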

Additional observations from a re-analysis of the deposited data

How the results depend on the processing

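The direction of the 4 members was the same in all 10 alternatives. Avpr1a moved by more than the SD between arrays with the local background subtracted (-4.55), with Agilent processed signals (-4.71), with a normexp offset of 0 (-4.09) and in the series table (-4.39). Without one array the values ranged from -3.70 to -3.12 for Avpr1a, from -3.17 to -2.87 for Hdc, from -2.99 to -2.37 for Penk and from -3.03 to -2.61 for Thy1. In the order of decrease Avpr1a ranked 1 to 2, Hdc 3 to 4, Thy1 4 to 5 and Penk 6 to 10 over 15 settings. The dye contrast of the members kept its sign in all 11 alternatives. Its adjusted p stayed above the threshold in each, but the treatment effect enters the error of this contrast, so nothing is read from that.

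Related genes called lower were 2 with the local background subtracted, 2 with Agilent processed signals, 2 with the mean over kept probes and 4 with separate channels, the replicate block and a dye term. Related genes called higher were 9 in the series table, 4 with the mean over kept probes, 5 with a variance prior with a trend, 3 with that prior made robust, 8 with separate channels and the replicate block and 9 with a dye term added. Neighbours called lower were 0 with Agilent processed signals, 0 with each array centred on its median and 0 with no filter on dim probes. Neighbours called higher were 1 with either trend prior and 1 in both separate-channel fits with the replicate block, in each case Ppm1h. In the series table the related gene called lower was Hrh3 and the neighbour Gabpb1.

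Over all genes, lower calls were 36 with median centring, 1323 in the series table, 98 with no filter, 388 with the replicate block and 456 with a dye term added. Higher calls were 74 with no background subtraction, 74 with the local background subtracted, 75 with processed signals, 7 with median centring, 73 with the median of the spots, 1037 in the series table, 21 with no filter, 224 with the mean over kept probes, 224 and 226 with the trend priors, 465 with the replicate block and 711 with a dye term added. The dye term left no spread between log ratios, so the correlation within spots of 0.617 from the fit without it was kept. The error of the fit with the dye term thus does not come from that spread, and nothing is read from its calls. The replicate block stands for the 2 channels of one array, since both pools of a replicate number were hybridised together.

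The fold filter passed 164 lower and 69 higher genes at 1.5-fold, 17 and 2 at 3-fold, and 26 and 7 with an intensity of 100 in both channels, which left 1 member, Penk. On 1 array alone it passed 63 to 128 lower and 34 to 63 higher genes, with all 4 members. The limma counts could not be fitted with 1 array. The causes of these shifts were not tested.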
